A study of Mus musculus with 4 samples.

Results

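The immediate-early genes Egr1, Egr2, Egr3, Nr4a1, Klf2, Klf4, Klf6, Klf10, Ier2 and Ier3 were read in cocultured macrophages as the 10 rows of the deposited count table that carry these symbols, out of 21878 rows. Of these 10 genes, 9 passed the filter on low counts together with 12494 genes in all, and Egr3 did not. RNA was sequenced from bone-marrow-derived macrophages (BMDMs) of C57BL/6 mice aged 8 weeks after coculture with MC38, a mouse colon cancer cell line. According to the labels the coculture lasted 48 h, while a figure legend of the study gives a shorter time. By the labels there were 2 libraries from WT mice and 2 from anti-Act1 mice. In anti-Act1 mice Act1, the adaptor protein of the interleukin-17 receptor encoded by Traf3ip2, is knocked down in macrophages. The study's account of its pathway analysis instead names macrophages of adenoma-prone Apc Min/+ mice and of their cross with anti-Act1 mice. The study calls the 2 libraries of a group biological replicates. All 4 libraries come from cocultured macrophages, so the values compare the genotypes under coculture and hold no macrophages without tumour cells.

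Immediate-early genes are transcribed within minutes of a signal without new protein synthesis, because the factors that switch them on, such as SRF with its ternary complex partners, CREB and NF-κB, are already present in the resting cell. Their transcripts are usually short-lived, and many encode transcription factors that set the later wave of gene expression. The EGR proteins and the KLF proteins bind GC-rich DNA through zinc fingers, NR4A1 is an orphan nuclear receptor, and the IER proteins are small stress-induced proteins. In macrophages KLF2 restrains inflammatory genes, KLF4 and EGR2 are linked to alternative activation, and IER3 is a target of NF-κB that acts in cell survival.

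Of the 9 tested genes, 3 were lower in anti-Act1 macrophages (Egr1, Egr2 and Nr4a1), 3 were higher (Klf4, Klf10 and Ier3), and 3 did not pass the test (Klf2, Klf6 and Ier2). The test was edgeR's quasi-likelihood test with Benjamini-Hochberg adjustment over all 12494 genes, read at an adjusted p under 0.05. By this test 20.7% of all tested genes were called, 10.9% as higher and 9.76% as lower. The same 6 genes were those whose CPM (counts set against the TMM-normalized library total) did not overlap between the groups, against 57.1% of all tested genes (28.4% higher and 28.7% lower). The median absolute log2 fold change was 0.45 over the 9 genes and 0.12 over all tested genes, and the median signed value was -0.10 against -0.00. All p-values are two-sided and were given by the model; permuting 4 libraries in groups of 2 gives an exact p of 0.333 at the lowest. In bulk RNA, fewer cells that transcribe a gene and less of its RNA per cell cannot be told apart.

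**Figure D1:**
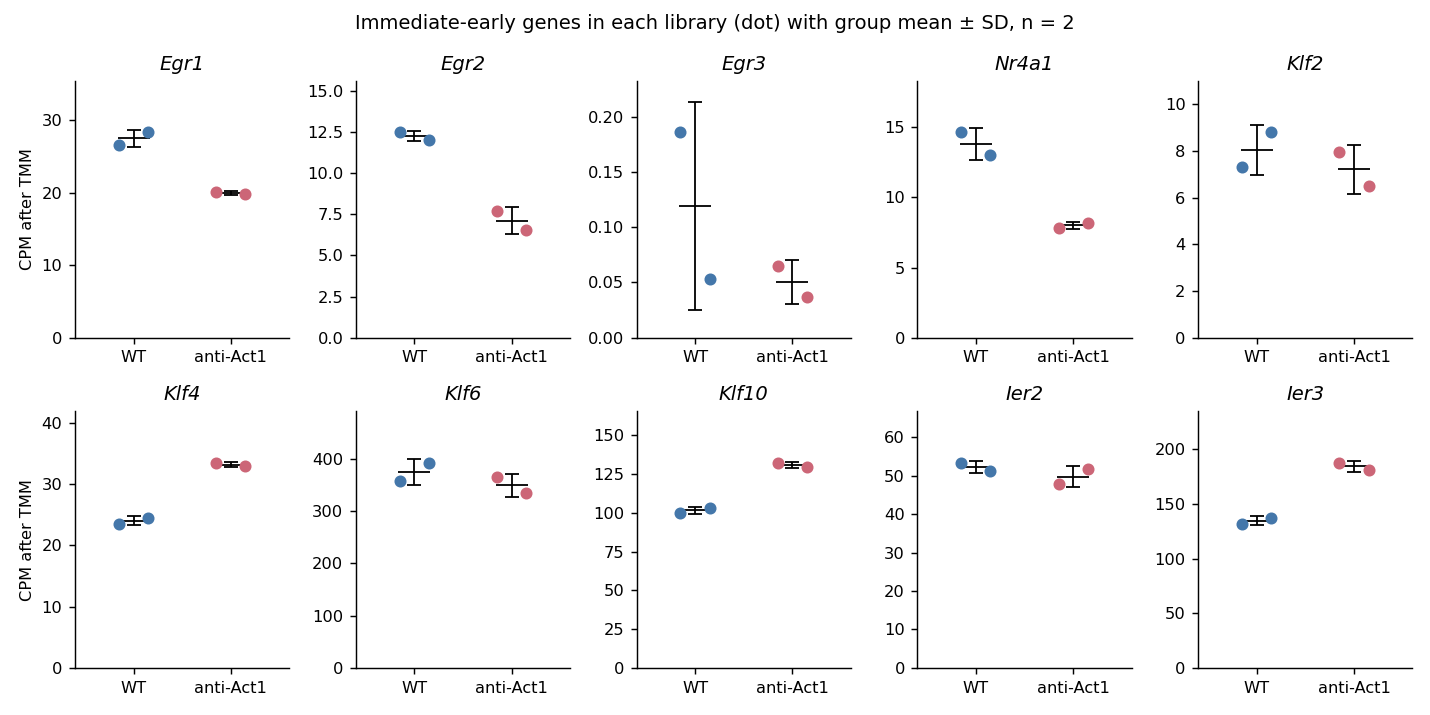
CPM after TMM normalization of each of the 10 genes (vertical axes from 0) in the 2 WT libraries (blue dots) and the 2 anti-Act1 libraries (red dots), with the group mean and SD as bars. Egr1, Egr2 and Nr4a1 lay lower in both anti-Act1 libraries, Klf4, Klf10 and Ier3 lay higher, and the groups overlapped for Egr3, Klf2, Klf6 and Ier2.

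Promoter sequence is shown for 4 of the 6 genes that moved, 2 that fell and 2 that rose, to set their upstream letters side by side. Each line holds 100 bases upstream of the RefSeq start of transcription (GRCm38), written 5′ to 3′ on the strand of the gene. Motif matches on either strand are in capitals. The place of each stretch was chosen for the kinds of motif it held, so the positions differ between genes. The density of capitals therefore reflects this choice and cannot be compared between genes. Egr2, Nr4a1 and Klf4 had further matches outside the printed stretch. The Egr2 stretch (chr10:67537739-67537838, plus strand) lies at positions -130 to -31 of 1 of 5 starts that RefSeq lists. It holds a CArG box, the letters bound by SRF, between 2 CRE cores (TGACG, read as CGTCA on the other strand).
Egr2: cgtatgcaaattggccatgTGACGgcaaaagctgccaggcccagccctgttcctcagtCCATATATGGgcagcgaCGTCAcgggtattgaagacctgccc
The Nr4a1 stretch (chr15:101266716-101266815, plus strand, positions -130 to -31) holds 2 CRE cores and a match to the EGR site GCGGGGGCG on the other strand, which overlaps a GC box (GGGCGGG).
Nr4a1: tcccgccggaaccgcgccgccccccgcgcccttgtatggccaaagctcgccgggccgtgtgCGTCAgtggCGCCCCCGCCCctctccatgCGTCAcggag
The Klf4 stretch (chr4:55532611-55532710, minus strand, positions -235 to -136) holds an EGR site that overlaps a GC box, 2 further overlapping GC boxes, a CRE core and an E-box (CACGTG).
Klf4: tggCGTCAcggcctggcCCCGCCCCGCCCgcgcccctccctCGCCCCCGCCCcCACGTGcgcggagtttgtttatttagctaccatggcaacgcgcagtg
The Ier3 stretch (chr17:35821583-35821682, plus strand, positions -130 to -31) holds an NF-κB site.
Ier3: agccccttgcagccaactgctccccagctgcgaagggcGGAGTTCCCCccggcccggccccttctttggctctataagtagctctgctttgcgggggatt

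The motif letters were also counted in the 250 bases before every RefSeq start, 32851 windows in all. A CArG box stood in 1.47% of these windows, the EGR site GCGGGGGCG in 2.57%, the CRE core in 17.8%, the GC box in 23.4%, the NF-κB site in 7.25% and the E-box in 6.02%. The table held promoters of 6 of the 10 genes, and Egr1, Egr3, Klf10 and Ier2 were not in it. Of the 6, Egr2 carried the CArG box, Nr4a1, Klf2 and Klf4 carried the EGR site, and Egr2 and Ier3 carried an NF-κB site. The GC box stood before Egr2, Nr4a1, Klf2 and Klf4, and the E-box before Egr2, Klf4 and Klf6. The CACCC box (CCACCC) stood in 28.1% of all windows, and before Egr2 and Klf2. Egr2 was read over 5 starts and each of the others over 1, while the shares are per single start. For Egr2 the NF-κB site, the GC box and the E-box lay before other starts than the one printed above. Egr2, Nr4a1, Klf2 and Klf4 each held a CRE core. Of these genes Egr2 and Nr4a1 fell, Klf4 rose and Klf2 did not pass the test. A link between the CRE core and direction was not tested. The sites CRE (TGACGTCA), NBRE (AAAGGTCA) and GCGTGGGCG matched in 0 of the 6. These are matches of letters and were not measured as binding.

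Total counts were 55435063 to 75062945 per library, and both WT libraries were deeper than both anti-Act1 libraries. Traf3ip2 was at 6.98 and 7.54 CPM in the WT libraries and at 9.63 and 7.84 CPM in the anti-Act1 libraries, with a log2 fold change of 0.27 (SE 0.12, edgeR quasi-likelihood adjusted p = 0.117), so the targeted transcript was not lower under the anti-Act1 label. Without anti-Act1 replicate 2 this value was 0.41 (adjusted p = 0.0377). Every direction given here therefore rests on the labels. Of 4 Y-linked genes, the WT libraries held 2248 to 7360 counts each and the anti-Act1 libraries 0 or 1, and the labels give no sex, so sex and genotype cannot be told apart in these libraries. The 10 macrophage markers summed to 25502 to 27249 CPM, while 8 epithelial markers summed to 0.128 to 0.464 CPM with Krt8, Krt18, Cldn3 and Cldn4 at 0. The 7 fibroblast markers summed to 1.33 to 2.19 CPM with Lum at 0, the 7 neutrophil markers to 6.57 to 7.43 CPM, and the 7 endothelial markers to 53.3 to 55.5 CPM with Emcn at 0. T cell, B cell, dendritic, mast and erythroid lists each summed to at most 5.31 CPM in every library.

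The EGR factors were lower in anti-Act1 macrophages where they could be measured. Egr1, the factor most used as a readout of ERK signalling, was at 26.6 and 28.3 CPM in the WT libraries and at 20.1 and 19.7 CPM in the anti-Act1 libraries. Both anti-Act1 libraries lay below both WT libraries, and the replicates of a group stood close together. Egr1 fell by 0.46 on the log2 scale (SE 0.0747, 95% interval -0.61 to -0.31, edgeR adjusted p = 3.64e-06), to 0.725 times the WT level. Egr2, a factor that macrophages raise in response to IL-4 and that also marks growth factor signalling, was at 12.5 and 12.0 CPM in WT and at 7.68 and 6.54 CPM in anti-Act1. The groups did not overlap, and the anti-Act1 replicates differed more from each other than the WT replicates did. Egr2 fell by 0.78 (SE 0.111, 95% interval -1.01 to -0.56, edgeR adjusted p = 2.65e-07), to 0.582 times the WT level. Only 5.40% of all tested genes had an absolute log2 fold change at least as large. With limma on log2(FPKM + 1) the Egr2 value was -0.45, a scale that understates the change of a gene at this low FPKM.

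Egr3, which acts together with EGR2 to restrain T cell activation, was too rare to test. It had 12 and 4 counts in the WT libraries and 4 and 2 counts in the anti-Act1 libraries, and the groups overlapped. The filter on low counts left it out, so no test was run. All 4 of these counts are even, and they may count both reads of a pair rather than fragments. Egr4 had 0 counts in all 4 libraries. The corepressors NAB1 and NAB2 bind EGR1 and EGR2 and limit their activity. Nab1 was at 98.5 and 98.7 CPM in WT and at 109 and 111 CPM in anti-Act1. It rose by 0.16 (SE 0.0532, edgeR adjusted p = 0.0235), a call that was lost in 6 of 16 alternative analyses, among them those without anti-Act1 replicate 1 (adjusted p = 0.106) and without anti-Act1 replicate 2 (adjusted p = 0.192). The Nab2 value was 0.12 (edgeR adjusted p = 0.144), and without WT replicate 1 it was called higher at 0.19 (adjusted p = 0.0200).

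Nr4a1, the orphan receptor also called Nur77, which is needed for the patrolling type of monocyte and restrains inflammatory genes in macrophages, fell to about the same extent as Egr2. Its CPM were 14.6 and 13.0 in the WT libraries and 7.82 and 8.20 in the anti-Act1 libraries. Every anti-Act1 value was well below every WT value. Nr4a1 fell by 0.79 (SE 0.105, 95% interval -1.0 to -0.58, edgeR adjusted p = 6.55e-08), to 0.580 times the WT level. Its paralogue Nr4a2, at 4.52 and 4.82 CPM in the WT libraries and at 2.06 and 2.82 CPM in the anti-Act1 libraries, fell by 0.94 (SE 0.174, edgeR adjusted p = 3.70e-05). Nr4a3 stayed below 1 CPM in every library and had a log2 fold change of 0.32 with a 95% interval from -0.56 to 1.21, too wide to place it with or apart from the others. The sign of the Nr4a3 value turned when WT replicate 2 or anti-Act1 replicate 1 was left out.

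The KLF genes did not move as a family. Klf4, a factor of monocyte differentiation and of alternative activation, was at 23.5 and 24.5 CPM in WT and at 33.5 and 32.9 CPM in anti-Act1. The groups were far apart against a difference between replicates of about 1 CPM. Klf4 rose by 0.47 (SE 0.0699, 95% interval 0.33 to 0.61, edgeR adjusted p = 8.83e-07), to 1.38 times the WT level. Klf10, first known as a gene induced early by TGF-β, was at 100.2 and 103 CPM in WT and at 132 and 129 CPM in anti-Act1. The groups did not overlap. Klf10 rose by 0.36 (SE 0.0529, 95% interval 0.26 to 0.47, edgeR adjusted p = 4.94e-07), to 1.29 times the WT level, and 16.6% of all tested genes had an absolute log2 fold change at least as large.

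Klf2 and Klf6 have opposite known roles in macrophages, KLF2 restraining inflammatory genes and KLF6 favouring them, and neither passed the test. Klf2 was at 7.31 and 8.80 CPM in WT and at 7.95 and 6.48 CPM in anti-Act1, so that 1 anti-Act1 library lay between the WT libraries. Its log2 fold change was -0.16 (SE 0.126, 95% interval -0.41 to 0.10, edgeR adjusted p = 0.430). The interval includes a fall as large as the rise of Klf10 and no rise as large as that of Klf4. Klf6, the most abundant KLF here, was at 358 and 393 CPM in WT and at 365 and 334 CPM in anti-Act1, and the groups overlapped. Its log2 fold change was -0.10 (SE 0.0537, 95% interval -0.21 to 0.01, edgeR adjusted p = 0.185). Without WT replicate 1 Klf6 was called lower, at -0.17 (adjusted p = 0.0202).

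Of the other 17 genes of the KLF and SP families, 12 were tested, 1 rose, 2 fell and 9 did not pass the test. By the same test 20.7% of all tested genes were called, 10.9% as higher and 9.76% as lower. Klf9, a gene induced by glucocorticoids, rose by 0.40 (edgeR adjusted p = 0.000508). Klf3, which acts mostly as a repressor, fell by 0.24 (adjusted p = 0.00187), and Sp2 fell by 0.25 (adjusted p = 0.0145). The median log2 fold change of these 12 genes was 0.03. Klf5, Klf12, Klf14, Klf15 and Klf17 had too few counts to test. The calls of Klf3 and Sp2 did not hold without each library. Klf3 had an adjusted p of 0.0545 without WT replicate 2 and 0.0596 without anti-Act1 replicate 1, and Sp2 had 0.118 without WT replicate 1 and 0.168 without anti-Act1 replicate 1. The 9 that did not pass the test ranged from -0.13 for Sp4 to 0.41 for Klf1, with Klf7, Klf8, Klf11, Klf13, Klf16, Sp1 and Sp3 between them.

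Ier3 had the smallest adjusted p of the 10 genes and Ier2 did not pass the test. Ier3, the stress-induced survival gene also called IEX-1, was at 132 and 137 CPM in WT and at 188 and 181 CPM in anti-Act1, with no overlap. It rose by 0.45 (SE 0.0522, 95% interval 0.35 to 0.56, edgeR adjusted p = 1.92e-09), to 1.37 times the WT level. Ier2, a nuclear immediate-early protein, was at 53.4 and 51.1 CPM in WT and at 47.9 and 51.7 CPM in anti-Act1. Its groups overlapped, and its log2 fold change was -0.07 (SE 0.0616, 95% interval -0.19 to 0.05, edgeR adjusted p = 0.482). Of the 3 other genes of the family name, Ier3ip1, which encodes a protein of the endoplasmic reticulum, rose by 0.24 (adjusted p = 0.00244). Ier5, a stress gene linked to the heat-shock factor, fell by 0.17 (adjusted p = 0.0183), and Ier5l had a value of -0.25 (adjusted p = 0.206). Without anti-Act1 replicate 1 the adjusted p of Ier3ip1 was 0.0853, and that of Ier5 was 0.102 without WT replicate 2 and 0.339 without anti-Act1 replicate 2.

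**Figure D2:**
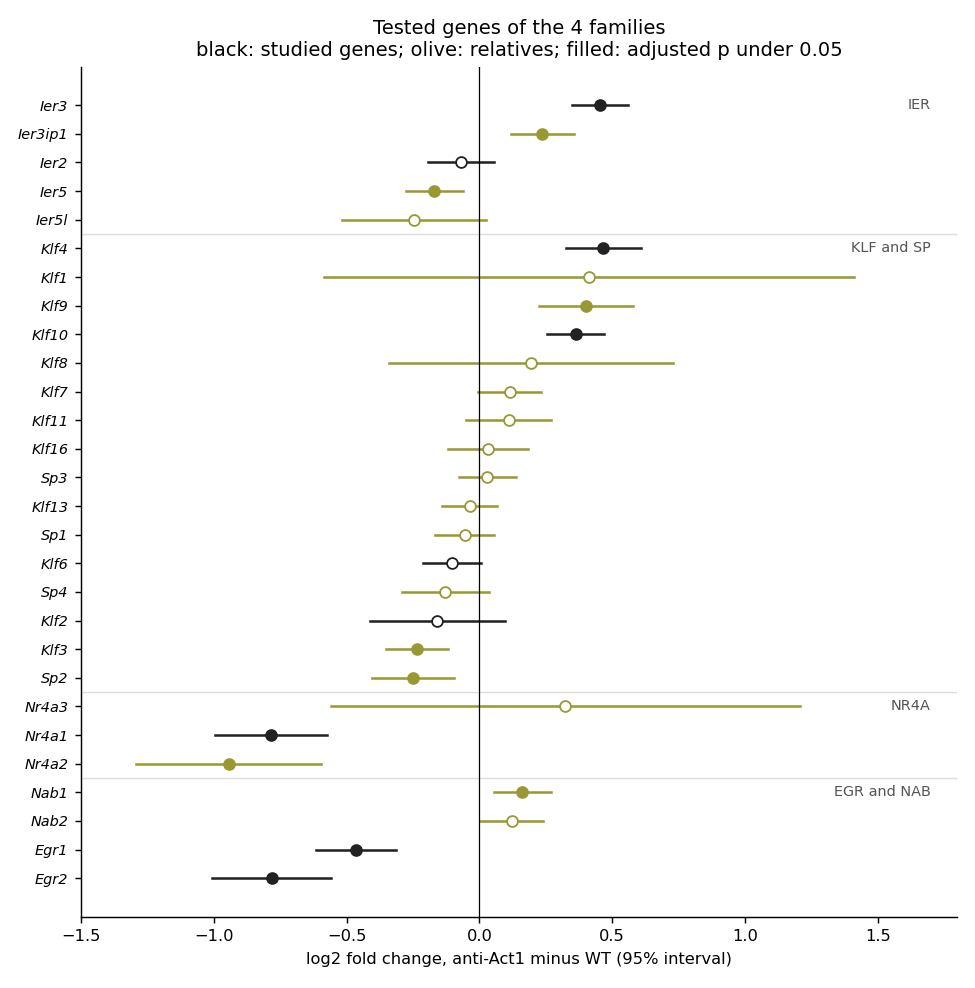
Log2 fold change of anti-Act1 against WT (horizontal axis) with its 95% interval for every tested gene of the EGR and NAB, NR4A, KLF and SP, and IER families, with the studied genes in black and their relatives in olive. Filled points had an edgeR adjusted p under 0.05, and the called values run from -0.94 for Nr4a2 to 0.47 for Klf4.

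Compared per length, as FPKM, the 10 genes spanned a mean WT level from 0.0309 for Egr3 to 125 for Ier3. In falling order the WT means were 125 FPKM for Ier3, 89.9 for Klf6, 35.4 for Klf10, 34.6 for Ier2, 9.02 for Egr1, 7.96 for Klf4, 4.86 for Nr4a1, 4.47 for Klf2, 1.65 for Egr2 and 0.0309 for Egr3. Ier3 stood above 95.8% of all tested genes and Egr2 above 23.4%. Over all 4 libraries the ranges of 3 pairs of neighbours overlapped, Klf10 with Ier2, Egr1 with Klf4, and Nr4a1 with Klf2, and the others kept the same order in every library. Ier3 and Klf6 together made up 68.0% to 71.6% of the summed FPKM of the 10 genes in a library. In both anti-Act1 libraries, and in neither WT library, Klf4 ranked above Egr1. Klf2 ranked above Nr4a1 in both anti-Act1 libraries and also in WT replicate 2, at 4.90 against 4.59 FPKM. The ratio of Klf4 to Egr1 FPKM was 0.891 and 0.875 in the WT libraries and 1.68 and 1.68 in the anti-Act1 libraries. The ratio of Ier3 to Ier2 FPKM was 3.45 and 3.75 in WT and 5.48 and 4.89 in anti-Act1. These ratios compare genes within a library and do not depend on the scaling between libraries. The length counted for Egr2 (7497 bases) was longer than its gene in GENCODE M21 (6714 bases), so its FPKM may be understated against the others.

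**Figure D3:**
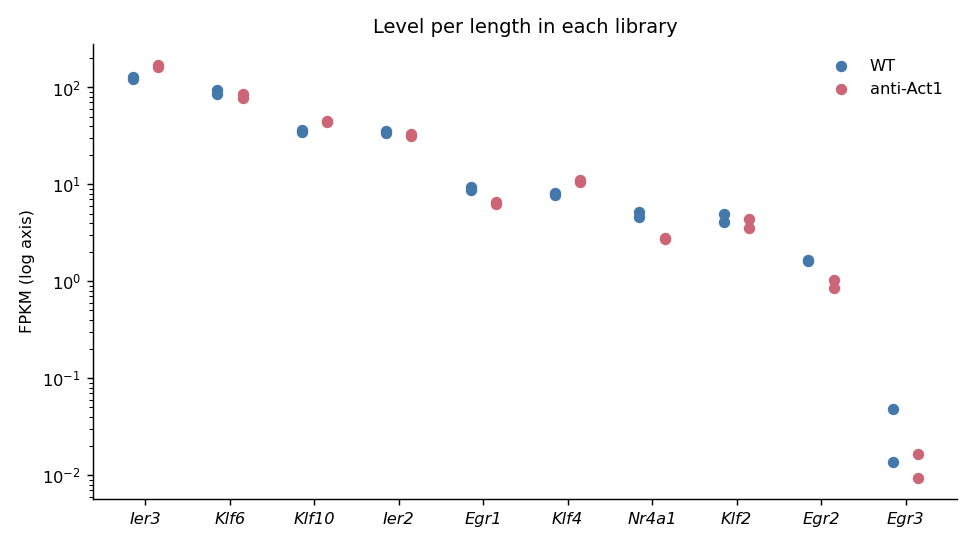
FPKM on a log axis of each of the 10 genes in the 2 WT libraries (blue) and the 2 anti-Act1 libraries (red), ordered by the mean of the WT libraries. Ier3 and Klf6 lie highest, Egr3 lies lowest, and Klf4 and Egr1 change places between the groups.

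The AU-rich pentamer ATTTA in the 3′ UTR is a feature of many short-lived immediate-early transcripts, and it was counted in all 10 genes. Ier3 carried 5 copies in 613 bases (8.16 per kb) and Nr4a1 carried 3 in 543 bases (5.52 per kb). The other genes ranged from 0 copies in Ier2 to 2.68 per kb in Klf10. The median was 2.38 per kb for the 10 genes and 1.28 per kb for 11143 tested genes with a 3′ UTR of at least 100 bases. The longer form TATTTAT stood in 4 of the 10 genes (Klf2, Klf6, Klf10 and Ier3) and in 28.1% of the tested genes. Of the 2 densest genes Ier3 rose and Nr4a1 fell, and a link between ATTTA and direction was not tested. Their windows of 30 bases with 2 copies each are shown with ATTTA in capitals, for Ier3 at chr17:35822485-35822514 and for Nr4a1 at chr15:101274702-101274731, both on the plus strand of GRCm38.
Ier3: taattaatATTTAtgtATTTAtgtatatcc
Nr4a1: ATTTAtatttgtgtattttcctggATTTAt

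In GENCODE M21 no other annotated gene overlapped any of the 10. The median GC content of their transcripts was 54.5%, against 50.5% over 12068 tested genes, and their median transcript length was 2997 bases against 2911. Removing a trend of the fold changes on GC content or on gene length left the same 6 genes called.

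The genes that carry the signal to immediate-early promoters were read in the same test. For this list and those below, the share of all tested genes called was 20.7%, 10.9% as higher and 9.76% as lower. Of 20 genes for SRF, its partners, the ERK cascade, CREB and MEF2, 1 rose, 5 fell and 14 did not pass the test, with a median log2 fold change of -0.05. Map2k1, which encodes the kinase MEK1, rose by 0.26 (edgeR adjusted p = 8.57e-05). Mef2a, a MADS-box factor like SRF, fell by 0.31 (adjusted p = 2.56e-05), and its relative Mef2c fell by 0.28 (adjusted p = 0.000273). The mRNA says nothing of the phosphorylation through which these proteins act.

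Other immediate-early genes moved in both directions, as the 10 genes did. Of 36 listed, 34 were tested, 15 rose, 11 fell and 8 did not pass the test, with a median log2 fold change of 0.13. Among all tested genes 10.9% were called higher and 9.76% lower. Maff, a small MAF factor, was at 11.2 and 10.8 CPM in WT and at 24.0 and 23.3 CPM in anti-Act1, and rose by 1.11 (SE 0.0843, edgeR adjusted p = 9.21e-15). Gem, a small GTPase, rose by 0.91 (SE 0.260, adjusted p = 0.00797), with an adjusted p of 0.0567 without WT replicate 2 and 0.139 without anti-Act1 replicate 1. Id1, an inhibitor of basic helix-loop-helix factors, was at 4.84 and 4.99 CPM in WT and at 1.30 and 1.83 CPM in anti-Act1, and fell by 1.66 (SE 0.187, adjusted p = 1.13e-09). Cebpb, a factor of inflammatory gene expression, was at 351 and 212 CPM in WT and at 170 and 133 CPM in anti-Act1. The fall of Cebpb by 0.89 passed edgeR's test (adjusted p = 1.09e-09) and not DESeq2's (adjusted p = 0.117), and WT replicate 1 stood apart from WT replicate 2. Fosl1, an AP-1 subunit singled out after its values were seen, had the highest fitted value on the list (1.75) from only 15 and 9 counts in WT and 38 and 30 counts in anti-Act1.

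**Figure D4:**
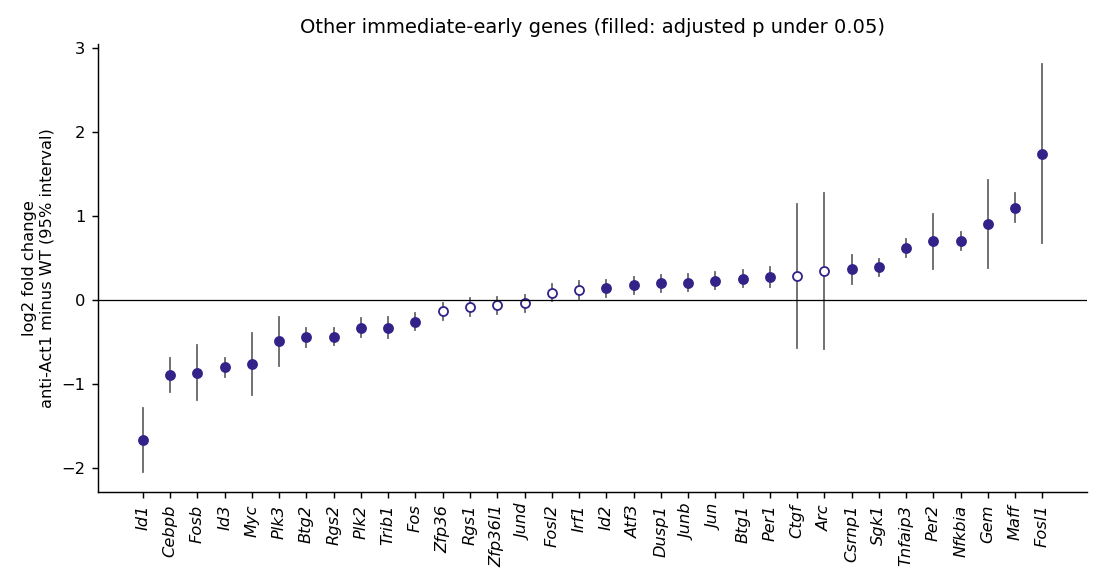
Log2 fold change of anti-Act1 against WT (vertical axis) with its 95% interval for the 34 tested immediate-early genes outside the 10, ordered by value. Filled points had an edgeR adjusted p under 0.05, with 11 below 0 and 15 above it.

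Genes that KLF2 is known to restrain or to induce were read in the same way. Of 14 inflammatory genes that KLF2 restrains, 9 rose, 2 fell and 3 did not pass the test, against 20.7% of all tested genes called. Their median log2 fold change was 0.67, beside a Klf2 value of -0.16 that did not pass the test. Cxcl1, a neutrophil chemokine, was at 7.23 and 7.97 CPM in WT and at 21.0 and 20.7 CPM in anti-Act1, and rose by 1.46 (edgeR adjusted p = 3.17e-17). Nos2, the inducible nitric oxide synthase, rose by 1.34 (adjusted p = 1.07e-24). In the other direction Vcam1, an adhesion molecule, fell by 1.34 (adjusted p = 3.93e-14), and Ccl2, a monocyte chemokine, fell by 0.85 (adjusted p = 1.62e-08). Of 6 genes that KLF2 induces, 2 rose, 0 fell and 4 did not pass the test. The 2 were Cdkn1a, the cell-cycle inhibitor p21, at 0.42 (adjusted p = 5.12e-09), and Itgb7, an integrin chain, at 0.37 (adjusted p = 3.21e-07).

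Genes of alternative activation, to which KLF4 and EGR2 are linked, moved in both directions. Whether KLF4 or EGR2 acted on these genes here was not tested. Of 14 listed genes 11 were tested, 2 rose, 3 fell and 6 did not pass the test, with a median log2 fold change of 0.05. Of all tested genes 20.7% were called, 10.9% as higher and 9.76% as lower. Arg1, the arginase of alternatively activated macrophages, was at 1535 and 1500 CPM in WT and at 2381 and 2338 CPM in anti-Act1, and rose by 0.64 (edgeR adjusted p = 1.12e-14). Tfrc, the transferrin receptor, rose by 0.62 (adjusted p = 8.78e-13). Pparg, a lipid-sensing nuclear receptor, fell by 0.81 (adjusted p = 2.16e-10), and Mrc1, the mannose receptor, fell by 0.63 (adjusted p = 5.57e-14).

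The patterns most like those of the genes with the largest called rise and fall were sought among 10887 genes with a mean of at least 1 CPM, by the Euclidean distance of centred log2 CPM over the 4 libraries. Closest to Klf4 was Ier3 itself (distance 0.0232), followed by Bhlhe41 (0.0349), a clock-linked repressor, and Ifit3b (0.0401), an interferon-induced gene. Closest to Nr4a1 were Rab3il1 (0.0517), an exchange factor for a RAB protein, Samd4 (0.0939), a regulator of mRNA translation, and Arap3 (0.0941), a regulator of small GTPases. With 4 libraries in 2 groups, a likeness mostly says that the genes differ between the groups by a similar amount.

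All 6 called genes kept their call and direction in all 16 alternative analyses, which changed the scaling, the filter, the tool, the trend corrections, the block and the libraries. DESeq2, which called 16.8% of all tested genes, called the same 6. Over the alternatives Egr1 ranged from -0.51 to -0.42, Nr4a1 from -0.87 to -0.64, Klf4 from 0.40 to 0.50, Klf10 from 0.33 to 0.38 and Ier3 from 0.39 to 0.48. Egr2 had the widest range, from -0.90 without anti-Act1 replicate 1 to -0.45 with limma on log2(FPKM + 1). The highest adjusted p of the 6 genes came in each case from limma on log2(FPKM + 1) without a filter and lay between 0.0145 and 0.0288. Klf2 and Ier2 were called in 0 of the 16 and Klf6 in 1.

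**Figure D5:**
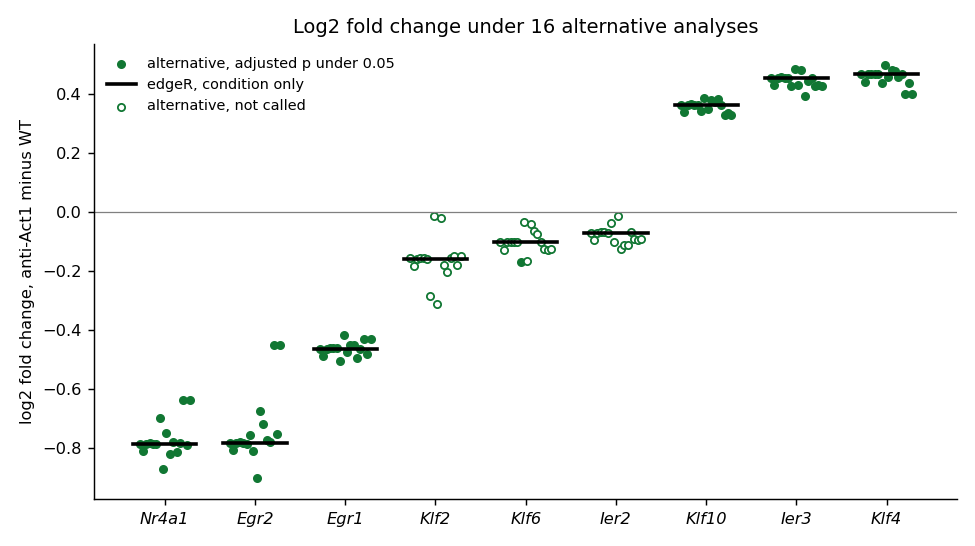
Log2 fold change of anti-Act1 against WT (vertical axis) of the 9 tested genes under the edgeR test as described (black bars) and under the 16 alternative analyses (green points, filled where the adjusted p was under 0.05). All points of the 6 called genes are filled, and 1 point of Klf6 is.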

How the data were processed

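Total RNA of 4 BMDM libraries (2 WT, 2 anti-Act1) was made into libraries with a NEBNext Ultra kit and sequenced as pairs of 150 bp reads. According to the submitters' processing notes and the study's methods, the authors filtered the reads, aligned them with TopHat and Bowtie and counted them per gene with HTSeq (0.6.1); the notes name both mm10 and mm8, so no coordinate was taken from the files. The deposited counts are whole reads per gene without normalization. The authors also deposited FPKM, counts scaled to the counted gene length and to the library total. Strand is not marked by this kit. Of the counts from 2 to 20, 73.1% were even, so the printed counts and the limit of 3 counts may hold both reads of a pair rather than single fragments, which was not tested.

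The counts were tested with edgeR 4.0.16 (R 4.3.3; TMM, filterByExpr, glmQLFit and glmQLFTest, two-sided, condition as the term) with Benjamini-Hochberg adjustment over 12494 genes. The libraries of a group were counted as separate samples because the study calls them biological replicates. Chi-square per degree of freedom between replicates was 10.4 in WT and 7.22 in anti-Act1, more than counting error alone gives. This spread does not show whether the libraries come from separate mice. Totals of 55435063 to 75062945 counts give a limit of 3 counts, 0.0395 to 0.0549 CPM, for a count of 0, for counting error only. Alternatives were DESeq2 1.42.0, edgeR with DESeq2's size factors or with library totals alone, the low-count filter removed or set to 10 counts in all libraries, a block for the replicate number, loess trends (span 0.3) on length or GC content removed, limma 3.58.1 on log2(FPKM + 1) or log2(FPKM + 0.1) with at least 1 FPKM in 2 libraries, log2(FPKM + 1) unfiltered, and each library left out in turn. Counts divided by 2 were added after the data were seen. The scripts were tested on simulated counts.

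The 10 genes, the lists and the motifs were chosen with earlier results of these data known. Named with values were the 10 genes, their family members, Traf3ip2, the Y-linked genes and, of every other list, up to 2 rises and 2 falls past the test with a mean of at least 1 CPM. Marker lists are given as sums, with Pecam1, Kdr and Cdh5 of the endothelial list also named. A further list was counted, and its result is not reported here. Gene models, 3′ UTRs and GC content come from GENCODE M21 and promoters from RefSeq, both on GRCm38. No protein sequence was used here.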

Additional observations from a re-analysis of the deposited data

How the results depend on the processing

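The 6 called genes of the 10 kept direction and call under all 16 alternatives. On unfiltered log2(FPKM + 1) values in limma, the genes called in all fell from 2586 to 1092 (583 higher, 509 lower) and those called in the context lists and family relatives from 62 to 36. With limma on log2(FPKM + 0.1), 910 genes were called higher, against 1366. With each library left out in turn, 1700 to 2574 genes were called, 940 to 1365 of them higher and 754 to 1209 lower; the lowest totals came without anti-Act1 replicate 2 and, for genes called lower, without anti-Act1 replicate 1. The causes were not tested. The replicate numbers did not pair the libraries (correlation of deviations -0.03 over 10892 genes), and with the replicate number as a block 2406 genes were called and the same 6 of the 10. Relatives that no analysis here called changed sign as follows, with ranges over the libraries left out in turn. Klf1 ranged from -0.32 to 0.87, Nr4a3 from -0.10 to 0.87, Klf16 from -0.021 to 0.086, Sp1 from -0.13 to 0.019 and Sp3 from -0.011 to 0.072. Klf13 was at 0.016 and Sp1 at 0.012 with the length trend removed, and Klf16 was at -0.0062 with the GC trend removed. Egr3 and 5 KLF genes had too few counts to test, and Klf12, Klf14 and Klf17 had 0 counts in all libraries.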

Other observations

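Heat-shock genes, which stress can raise together with immediate-early genes, were counted in the same test. Of 10 listed, 4 rose, 0 fell and 6 did not pass edgeR's quasi-likelihood test, with a median log2 fold change of 0.17. Among all tested genes 20.7% were called, 10.9% as higher. Hspa1a, an inducible HSP70 chaperone, was at 2.52 and 2.62 CPM in the WT libraries and at 4.40 and 6.01 CPM in the anti-Act1 libraries, and rose by 1.01 (adjusted p = 7.11e-06). Hspa1b, its near-identical copy, rose by 0.73 (adjusted p = 0.00779), and was not called without WT replicate 1 (adjusted p = 0.0700) or without anti-Act1 replicate 1 (adjusted p = 0.173). Reads of these 2 copies may have been split between them by the counting, so each value is uncertain.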
